A study of Mus musculus with 4 samples.

Results

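The 10 early kidney genes described here are transcription factors or their partners: Six2, Six4, Eya1, Pax2, Pax8, Sall1, Sall4, Osr1, Wt1 and Lhx1. They were chosen by name, as every probe whose annotated gene symbol is one of the 10, and each had 1 probe among the 22702 probes and 15096 singly named genes of the array. Log2 ratios were read on 4 two-colour oligonucleotide arrays that each carried dissected metanephric mesenchyme (MM), from which the nephrons of the permanent kidney arise, against intermediate mesoderm (IM), the embryonic strip that gives rise to kidneys, gonads and their ducts. Both tissues came from mouse embryos of both sexes at 10.5 dpc (days post coitum). The tissues were taken by dissection, and no strain, marker or count of pooled embryos is given in the sources used here. MM was channel 1 on arrays 1 and 2 and channel 2 on arrays 3 and 4, with no common reference. The names of arrays 3 and 4 cross the nouns (intermediate mesenchyme, metanephric mesoderm) and were read as the same tissues. A positive log2 ratio means a higher signal in MM, which is the likely direction from the labels and is not settled by them, since no label gives the dye of each channel. Both tissues are mixtures of cells, so fewer cells of a kind and less RNA per cell cannot be told apart.

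Six2 and Six4 are homeodomain factors, and Eya1 belongs to their coactivators, which bring transcriptional activation to DNA that the homeodomain partner binds. Pax2 and Pax8 are closely related paired-domain factors of the nephric lineage, and Lhx1 is a LIM-homeodomain factor that follows them in the nephric duct. Osr1 and Wt1 are zinc finger factors of the intermediate mesoderm and the mesenchyme derived from it, and Sall1 and Sall4 are zinc finger factors of the spalt family. In the metanephric mesenchyme Six2 keeps nephron progenitors undifferentiated, and Eya1, Pax2, Sall1 and Wt1 are all known to be needed for the mesenchyme to attract or answer the ureteric bud.

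Promoter sequences from RefSeq (build GRCm38.p6) were at hand for 6 of the 10 genes, and those of the 2 that passed a test below, Six2 and Pax8, are shown for orientation. Each runs 5′ to 3′ on the gene's strand over the 250 bases before the annotated start, at chr17:85688255-85688504 (minus strand) for Six2 and at chr2:24475600-24475849 (minus strand) for Pax8. Capitals mark the letters TAAT, the core that many homeodomain proteins bind, and GGGCGG, the GC box, on either strand.
Six2: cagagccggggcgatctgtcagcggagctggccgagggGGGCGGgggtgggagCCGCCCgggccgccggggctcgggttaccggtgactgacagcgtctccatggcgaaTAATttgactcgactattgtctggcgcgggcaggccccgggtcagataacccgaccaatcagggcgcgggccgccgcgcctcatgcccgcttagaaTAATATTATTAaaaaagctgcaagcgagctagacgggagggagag
Pax8: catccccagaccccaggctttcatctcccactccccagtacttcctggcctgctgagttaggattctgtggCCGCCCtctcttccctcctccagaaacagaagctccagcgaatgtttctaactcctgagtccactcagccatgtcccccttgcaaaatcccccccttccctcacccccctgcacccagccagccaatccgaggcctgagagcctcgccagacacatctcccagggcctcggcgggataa
The Six2 window held 4 matches to TAAT, 3 of them in the capital run nearest the start, and 2 GC boxes. The Pax8 window held 0 matches to TAAT and 1 GC box. Over 32851 promoter windows of the same length, 54.9% held TAAT and 32.7% held the GC box. Neither window held the Wt1/Egr letters GCGTGGG, found in 4.30% of windows, or the MEF3 site of Six-family factors (TCAGGTTTC), found in 0.387%. These letters were searched on both strands, and the arrays do not measure binding.

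The arrays fell into pairs by channel orientation. The first pair (arrays 1 and 2) carried 21509 and 21599 measured probes and the second (arrays 3 and 4) 15812 and 16242. A floor of -6.64, equal to a ratio of 0.01, was reached by 16 and 8 probes on the first pair and by 1672 and 1805 on the second. Over 13191 probes clear of that floor, with probes not being replicates, Pearson's r was 0.836 and 0.912 inside the pairs and 0.113 to 0.274 between them. High ratios on the first pair were often not measured on the second: of 1216 probes at 2 or more on arrays 1 and 2, 88.2% had no value or the floor on array 3 or 4, against 38.5% of all 21461 probes with values on arrays 1 and 2. Because of these pairs the kidney factors are given per array, and the tests were run with a term for channel orientation and without it.

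Of the 10 genes, 8 could be tested, with measurements on all 4 arrays. With the orientation term 3 were higher in MM (Six2, Sall4 and Osr1), 2 were lower (Wt1 and Pax8) and 3 did not pass (Eya1, Pax2 and Lhx1), by limma at an adjusted p under 0.05 over 14184 probes. That fit called 61.9% of all tested probes, 23.8% as higher and 38.1% as lower, so the 62.5% of the kidney genes that passed was near the background and is no result about them. On arrays 3 and 4 alone 4 of the 8 passed, beside 53.4% of probes. In both fits, with and without the term, 4 of the 8 passed, 3 higher and 1 lower, where the share of all probes was 28%, with 13.6% higher and 14.4% lower. The sign was the same on 4 arrays for 5 of the 8, against 49.4% of all tested probes. A change of at least 2-fold in both fits was reached by 2 as higher (Six2 and Sall4), as 4.31% of probes did, and by 1 as lower (Wt1), as 0.938% did. The median log2 ratio of the 8 was 0.22, and that of all tested probes was -0.08. The exact sign-flip test on single genes cannot go below p = 0.125 with 4 arrays, and each of the 5 genes with a constant sign had this smallest two-sided value.

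**Figure D1:**
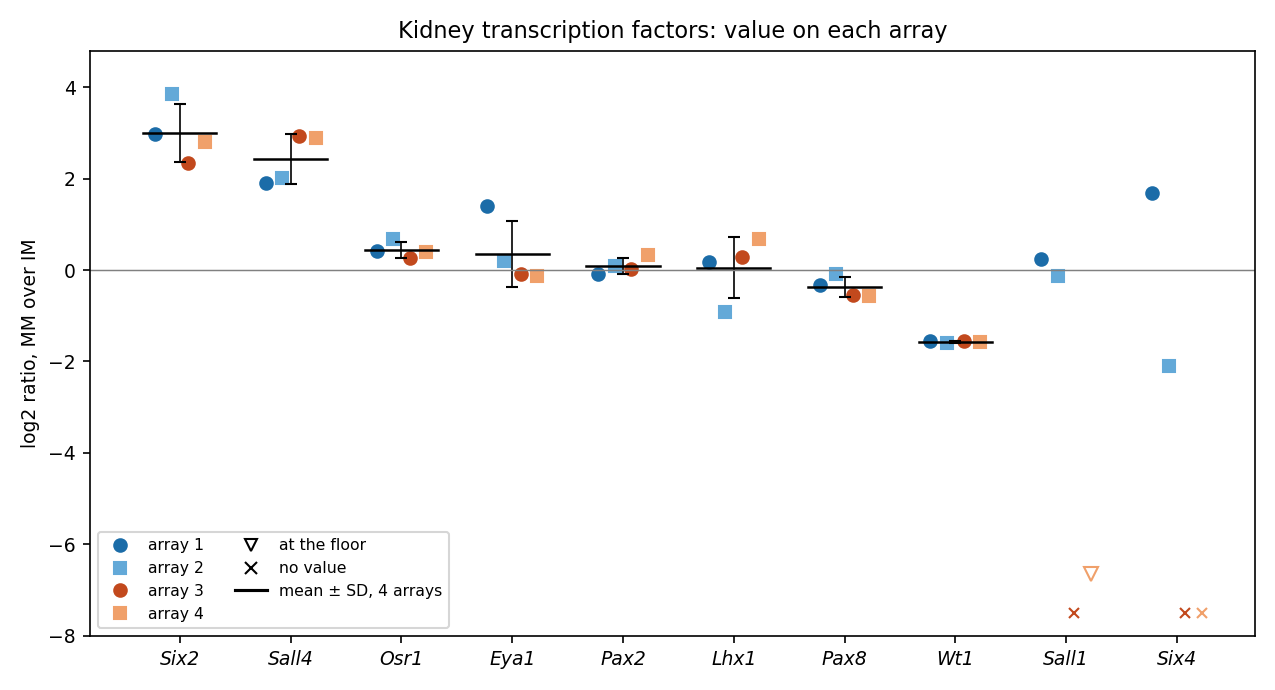
Log2 ratio of MM over IM for the 10 genes on each of the 4 arrays, blue for arrays 1 and 2 and orange for arrays 3 and 4; bars give the mean ± SD over 4 arrays, open triangles a value at the floor and crosses no value. Six2 and Sall4 lay above 1.9 on every array and Wt1 between -1.60 and -1.55, while the 2 values of Six4 lay on opposite sides of 0.

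Six2, the homeodomain factor that holds nephron progenitors in an uncommitted state, had the highest mean ratio of the group and the highest ratio on arrays 1 and 2. Its log2 ratios were 2.99, 3.86, 2.35 and 2.81 on arrays 1 to 4. All were positive, and both values of the first pair were above both of the second. The mean was 3.00 ± 0.63 (SD, n = 4), a 7.99-fold higher signal in MM (95% interval 2.41 to 3.59 on the log2 scale, limma adjusted p = 0.0021 with the orientation term and 0.00619 without it). It was the 19th highest mean among the 14184 tested probes. Many probes high on arrays 1 and 2 had no value or the floor on the second pair, as above. Such probes could hardly outrank Six2. Within single arrays it stood 1112th from the top of 21493 values above the floor on array 1, 755th of 21591 on array 2, 205th of 14140 on array 3 and 89th of 14437 on array 4, so it was further up the order on the second pair although its ratios there were smaller. Arrays 1 and 2 alone gave 3.42 (adjusted p = 0.0644) and arrays 3 and 4 alone 2.58 (adjusted p = 0.0274). The orientation term for Six2 was 0.85 between the pairs (adjusted p = 0.161).

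Six4, a homeodomain factor of the same family, could not be tested. It had 1.69 on array 1, -2.11 on array 2 and no value on arrays 3 and 4. The gap of 3.80 between 2 arrays of the same orientation was exceeded by 1.30% of probes, where the median gap was 0.167, so these values give no direction for Six4.

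Eya1, the coactivator through which Six-family proteins switch on their targets, had 1.40 on array 1, 0.21 on array 2, -0.10 on array 3 and -0.13 on array 4. The pairs did not overlap and had opposite signs. Its mean of 0.35 ± 0.72 did not pass (limma adjusted p = 0.28 with the orientation term and 0.496 without it), and the 95% interval of -0.36 to 1.06 leaves room for a 2-fold higher signal in MM. It passed in 1 setting, without array 2, where the ratio was 0.65 (adjusted p = 0.0129).

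Sall4, a spalt factor known from the early embryo, limb and germ line, was the only other gene of the group over 2-fold higher in MM. It had 1.90, 2.01, 2.93 and 2.89 on arrays 1 to 4. The pairs were each tight and did not overlap, with the second pair higher. The mean was 2.44 ± 0.55 (SD, n = 4), a 5.41-fold higher signal in MM (limma adjusted p = 0.000228 with the orientation term and 0.00719 without it). The difference between the pairs was -0.95 and passed for the orientation term (adjusted p = 0.00636), as it did for 44.6% of all probes, and Sall4 was the only one of the 8 genes where it passed. On arrays 3 and 4 it stood 56th of 14140 and 71st of 14437 values above the floor, counted from the top. On arrays 1 and 2 it stood 2034th of 21493 and 1692nd of 21591. Many probes high on arrays 1 and 2 had no value or the floor on the second pair, as above, and so took no place above Sall4 there. Six2 was above Sall4 on arrays 1 and 2 and below it on arrays 3 and 4, so the order of these 2 ratios is not settled.

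Sall1, the spalt factor needed for the mesenchyme to draw in the ureteric bud, was not tested. It had 0.24 on array 1, -0.12 on array 2, no value on array 3 and the floor on array 4. The measured values lay on both sides of 0, and the floor is no measured fold. When probes with 3 values were admitted Sall1 was called lower (limma adjusted p = 0.005), and that call rests on the floor value.

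Osr1, the zinc finger factor that marks the intermediate mesoderm from its start, was slightly higher in MM. It had 0.42, 0.67, 0.26 and 0.39 on arrays 1 to 4, all positive, with the second pair wholly below the first. The mean was 0.44 ± 0.17 (SD, n = 4), 1.35-fold (limma adjusted p = 0.00991 with the orientation term and 0.0314 without it). Osr1 missed the threshold when array 3 (0.47, adjusted p = 0.0628) or array 4 (0.41, adjusted p = 0.0716) was left out. Neither pair by itself called it (0.55, adjusted p = 0.0972, for the first and 0.32, adjusted p = 0.0608, for the second).

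Wt1, a zinc finger factor of kidney mesenchyme, gonad and the lining of the body cavity, was the gene most clearly higher in IM. It had -1.56, -1.60, -1.55 and -1.57 on arrays 1 to 4. The 4 values were nearly equal whichever way the channels ran, with an orientation difference of -0.02 (adjusted p = 0.801). The mean was -1.57 ± 0.02 (SD, n = 4), a 2.97-fold higher signal in IM (limma adjusted p = 0.000302 with the orientation term and 0.00154 without it), and 0.677% of tested probes had a smaller SD. Counted from the lowest value above the floor, Wt1 stood 823rd of 21493 and 448th of 21591 on arrays 1 and 2 and 66th of 14140 and 69th of 14437 on arrays 3 and 4. Arrays 3 and 4 alone called it (-1.56, adjusted p = 0.0048), and arrays 1 and 2 alone gave -1.58 (adjusted p = 0.061).

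Pax2 and Pax8, the paired-domain factors that specify the nephric lineage together, were both close to equal in the tissues. Pax2 had -0.08, 0.09, 0.02 and 0.32 on arrays 1 to 4, with a mean of 0.09 ± 0.17 that did not pass (limma adjusted p = 0.362 with the orientation term and 0.514 without it). Its 95% interval of -0.13 to 0.31 excludes a 2-fold difference in either direction under that fit. Pax8 had -0.32, -0.09, -0.54 and -0.56, all negative, with the pairs apart. Its mean of -0.38 ± 0.22, 1.30-fold higher in IM, passed with the orientation term (limma adjusted p = 0.00973) and not without it (adjusted p = 0.0704). Pax8 also missed the threshold when array 3 (-0.38, adjusted p = 0.0745) or array 4 (-0.37, adjusted p = 0.0733) was left out, and the first pair by itself gave -0.20 (adjusted p = 0.249).

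Lhx1, the LIM-homeodomain factor of the nephric duct, had 0.17, -0.91, 0.29 and 0.67 on arrays 1 to 4. Array 2 was low against the other 3. The mean of 0.06 ± 0.68 did not pass (limma adjusted p = 0.851 with the orientation term and 0.925 without it), and the 95% interval of -0.62 to 0.73 is wide. The gap of 1.08 between arrays 1 and 2 was exceeded by 10.7% of probes.

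In order of the mean ratio, Six2 and Sall4 stood at the top and did not separate, as above. Osr1, Eya1, Pax2 and Lhx1 followed at 0.44, 0.35, 0.09 and 0.06, and the arrays of each overlapped those of the next. Pax8, whose arrays overlapped those of Lhx1, and then Wt1 closed the order, and on every array Wt1 was below the other 7 tested genes.

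**Figure D2:**
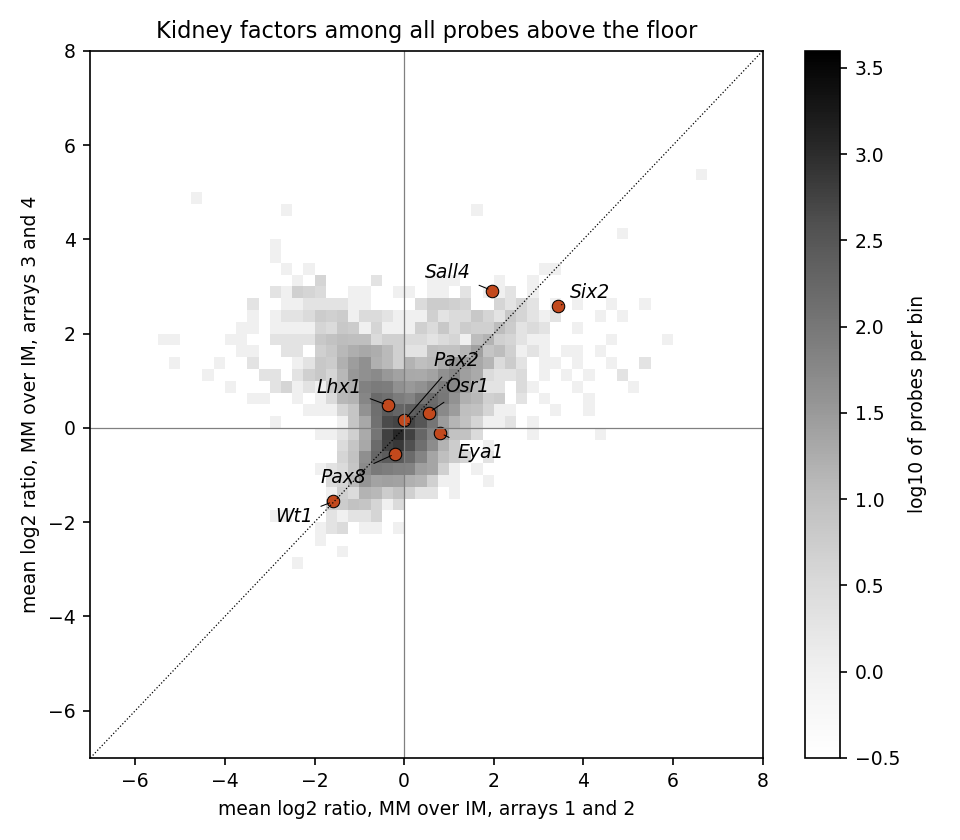
Mean log2 ratio on arrays 1 and 2 (x) against arrays 3 and 4 (y) for the 13191 probes above the floor, as grey bins shaded by the log10 number of probes, with the 8 tested kidney genes in orange and a dotted line where the pairs are equal. Wt1 lies on the line at -1.58 and -1.56, Six2 at 3.42 and 2.58 and Sall4 at 1.96 and 2.91, while Eya1 and Lhx1 lie where the pairs have opposite signs.

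Relatives of these genes were read from lists of their families, 29 genes in all, of which 28 had a probe. Of their 30 probes 15 were measured on all 4 arrays and 9 on arrays 1 and 2 alone. The list of Six-family, Eya and Dach genes, whose Dach proteins join the other 2 families in a complex, had 2 of 8 genes tested. Both were lower with the orientation term and neither in both fits: Six5 had -0.35, -0.32, -0.15 and -0.05 (limma adjusted p = 0.0119), and Dach2 had -0.22, -0.10, -0.17 and -0.08 (limma adjusted p = 0.0496).

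The other relatives of Six2 and Eya1 rest on arrays 1 and 2. Six3 had -0.18 and -0.65, Eya3 -0.10 and -0.38, Eya4 1.08 and 0.46 and Eya2 1.51 and 0.88, each with no value on arrays 3 and 4. Dach1, a cofactor of Six-family proteins, had 1.97 and 1.33, and Six6 had 0.15 on array 1, 0.10 on array 2 and the floor on array 3. None of these was tested, and none reached the ratios of Six2 on the same arrays.

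Of the other Pax genes 4 of 7 were tested, 1 was higher, 1 lower and 2 did not pass. Pax3, a factor of somite and neural tube, was lower (-0.07, -0.22, -0.28 and -0.24, limma adjusted p = 0.0214 with the orientation term and 0.0702 without it). Of 2 Pax6 probes, Pax6 being a factor of neural tube and eye, 1 was higher on 4 arrays (0.74, 1.09, 2.14 and 2.34, limma adjusted p = 0.00148 with the orientation term and 0.041 without it) and the other was not (-0.43, -0.11, 0.08 and -0.11, adjusted p = 0.187). Pax1 (-0.38, -0.45, -0.06 and -0.69) and Pax4 (0.62, 0.21, -0.10 and 0.01) did not pass. Pax5, the third gene of the Pax2 and Pax8 subgroup, had 0.04, -0.76 and 0.57 on arrays 1, 2 and 4, and Pax9, a factor of the pharynx and sclerotome, had 1.89 on array 1, 1.10 on array 2 and the floor on array 4. Pax7 had -0.40, -0.34 and -0.10 on arrays 1, 2 and 3.

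The list of other Sall, Osr and Lim-homeobox genes and their cofactors had 8 of 13 genes tested, with 1 higher, 2 lower and 5 not past the threshold, and 0 higher and 1 lower in both fits. Ldb2, a cofactor that bridges LIM-homeodomain proteins, was the latter (-0.28, -0.31, -0.32 and -0.35, limma adjusted p = 0.00329 with the orientation term and 0.0118 without it). Lhx5, the closest relative of Lhx1, was higher with the orientation term (0.04, 1.68, 2.36 and 2.03, limma adjusted p = 0.0278) and not without it (adjusted p = 0.0813). Lmo4, a LIM-only protein, had 0.40, 0.13, -1.07 and -0.88, so its call as lower (limma adjusted p = 0.0228 with the orientation term and 0.491 without it) came from arrays 3 and 4. The sign of Lhx4 turned with the pairs, from -2.76 and -2.16 on the first to 2.82 and 2.80 on the second. Osr2 also changed sign with the pairs (-0.75, -0.28, 0.84 and 0.51), as did Ldb1 (0.13, 0.20, -0.14 and -0.08), while Lhx9 had 0.20, -0.14, 0.12 and 0.07. None of Lhx4, Osr2, Ldb1 and Lhx9 passed.

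Sall2, which had 0.12, 0.23, 0.01 and 0.07 and did not pass (limma adjusted p = 0.0716), lay far below Sall4 on every array. Sall3 had -0.91, -1.76 and 0.91 on arrays 1 to 3. Of Lim-homeobox genes with values on few arrays, the probes of Lhx6 disagreed, at 6.81 and 6.90 for one on arrays 1 and 2 and -1.25, -1.41 and 0.93 on arrays 1 to 3 for the other, and Lhx3 had 3.53 and 1.88 there. On the same 2 arrays Lhx2 had 1.35 and 0.40, and Lhx8 had -0.81 and -1.30.

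**Figure D3:**
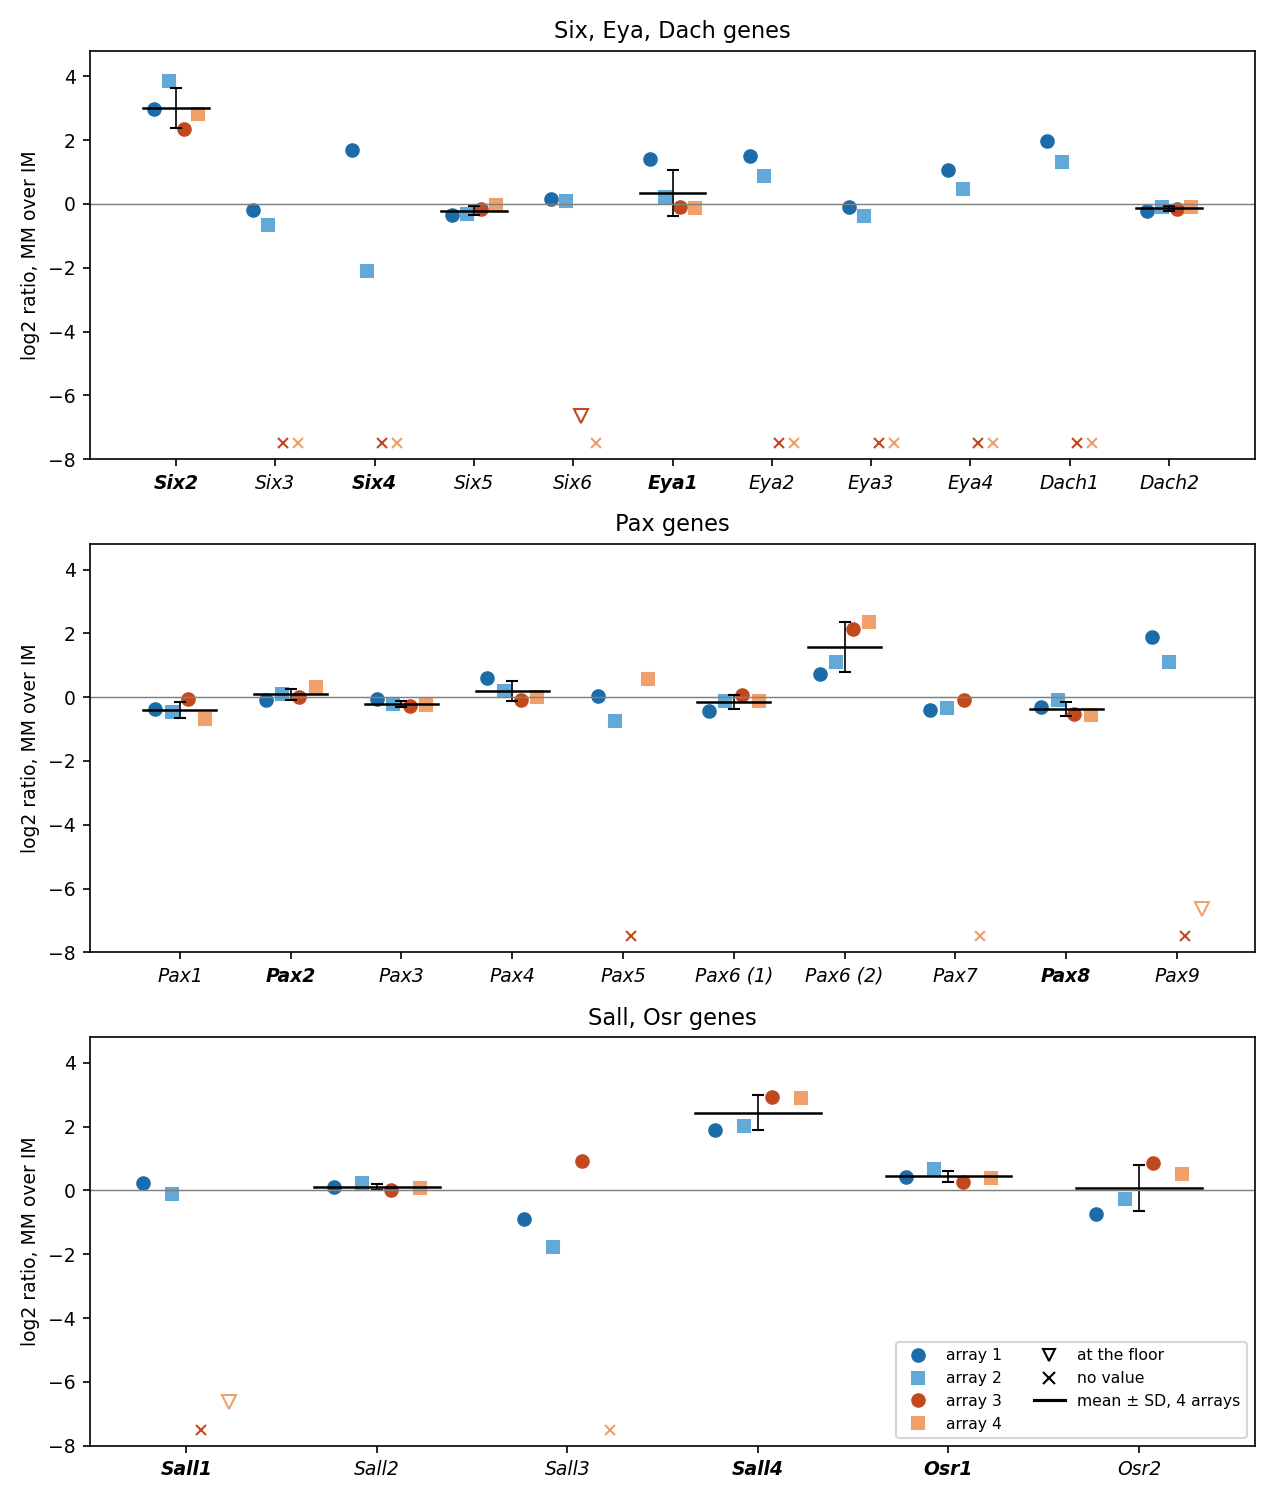
Log2 ratio of MM over IM on each array for the Six-family, Eya and Dach genes, the Pax genes and the Sall and Osr genes, with the genes described in full in bold; bars give the mean ± SD where 4 arrays had a value, open triangles the floor and crosses no value, and (1) and (2) are different probes of Pax6. Six2 and Sall4 stand above 1.9, a level just under the lowest Sall4 value, on 4 arrays. No other gene in these panels does, and those without a value on every array, such as Dach1, Eya2 and Pax9, could not.

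Differences within families were read on the same arrays for 5 chosen pairs with values on all 4. Other relatives with values on all 4, such as Pax3, Pax4, Lhx4 and Lhx9, were not paired. Six2 exceeded Six5 on every array by 2.50 to 4.18 (mean 3.22 ± 0.73), and Sall4 exceeded Sall2 by 1.78 to 2.92 (mean 2.33 ± 0.63). Pax2 exceeded Pax8 on every array too, by 0.24, 0.18, 0.56 and 0.88 (mean 0.46 ± 0.32). Osr1 was above Osr2 on 2 arrays and below it on 2 (mean 0.36 ± 0.85), and Lhx1 was below Lhx5 on 3 of 4 (mean -1.47 ± 1.18). The exact two-sided sign-flip p was 0.125 for each of the first 3 pairs, the smallest that 4 arrays allow, and 0.208 after Benjamini-Hochberg adjustment over 5 pairs. For Osr1 and Osr2 it was 0.5 and for Lhx1 and Lhx5 0.25 (0.5 and 0.312 adjusted).

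Genes that lie next to the kidney factors on their chromosomes, by RefSeq order of protein-coding genes, were read for the 3 with ratios over 2-fold. Six2 has Six3 on one side, with the low ratios above, and on the other Srbd1, which had -0.28, -0.47, -0.19 and 0.38 and did not pass (limma adjusted p = 0.376). Sall4 lies between Atp9a, which was lower (-0.48 ± 0.05, limma adjusted p = 0.00192), and Zfp64, at 0.02 ± 0.13 (adjusted p = 0.674). Wt1 lies between Eif3m, at -0.07 ± 0.25 (limma adjusted p = 0.422), and Them7, at -0.27, -0.29, 0.05 and 0.04 (adjusted p = 0.0283 with the orientation term and 0.426 without it). None of these neighbours with values on 4 arrays came within 1 log2 unit of its kidney gene's mean. The 3 kidney genes were picked for ratios far from 0, whereas the median log2 ratio of all tested probes was -0.08. A typical probe would lie as far from them, so this distance says nothing particular about the neighbours.

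Upstream regulators, partners and known targets of the kidney factors went both ways. Of 44 listed genes 40 had a probe and 32 were tested: 12 were higher in MM, 12 were lower and 8 did not pass, with 9 higher and 6 lower in both fits. Beside these stand 23.8% of all probes higher and 38.1% lower with the orientation term, and 13.6% and 14.4% in both fits. The calls of Gfra1, the co-receptor for Gdnf, and Itga8, an integrin of the mesenchyme, as lower rest on the floor. Gfra1 was at 3.43 and 1.54 where measured and Itga8 at 3.67 and 4.16. Their list's median log2 ratio was 0.06. Gdnf, the growth factor that Six2, Eya1, Pax2 and Sall1 help to switch on in the mesenchyme, had 1.98, 1.81, 2.07 and 1.82. Gdnf was thus higher on all arrays, as Six2, Sall4 and Osr1 were and Eya1, Pax2 and Lhx1 were not. Hoxa11, a Hox partner of Eya1 and Pax2 at Six2 and Gdnf, had 2.56, 2.28, 1.29 and 1.58. Crym, a marker of this mesenchyme, had 2.27, 2.32, 1.82 and 1.99. Robo2, the Slit receptor that restricts Gdnf, had 1.28, 1.24, 2.36 and 2.04, and Mycn, a growth regulator of progenitors, had 1.39, 1.40, 1.18 and 1.14. Wnt4, which Six2 is known to hold back and which starts nephron formation, was lower on every array at -1.87, -1.71, -2.18 and -2.13. All 6 passed in both fits (limma adjusted p up to 0.00108 with the orientation term and up to 0.0147 without it).

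Probes with the 4 values nearest to each gene's own were sought among 10869 probes of single genes above the floor, by Euclidean distance. For Six2 they were 1700013H16Rik, Tdrd3 and Plaa at distances of 0.64 to 0.91. For Sall4 they were Pygo2, Pdia4 and Prkci at 0.46 to 0.53. For Wt1 they were St13, Fabp7 and Sfrp1 at 0.11 to 0.21, each between -1.71 and -1.39 on every array. Osr1, with a smaller ratio, had Bag4, Psmd8 and Det1 at 0.09 to 0.10. Six4 and Sall1 could not enter this search, and none of the 8 tested genes was among the 3 nearest to another. With 3 probes taken from 10869, such a meeting was unlikely in advance, so its absence says nothing about these genes. Also, 4 arrays in 2 pairs give little to tell patterns apart.

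Marker lists of the dissected tissue and its neighbours moved with some of these genes, and their part in the ratios was not tested. Over all probes 23.8% were higher and 38.1% lower with the orientation term, and 13.6% and 14.4% in both fits. The metanephric mesenchyme list had 5 of 11 tested genes higher and 3 lower, and 5 higher and 2 lower in both fits, led by Hoxa10 (2.90 ± 0.17), with medians of 0.77, 0.75, -0.27 and 0.0014 on arrays 1 to 4. Without Itga8, whose call as lower rests on the floor, they were 0.57, 0.65, 0.24 and 0.43. Cited1, a defining gene of the list, had 0.36 and 0.35 against -0.34 and -0.13. Rspo1 was lower in both fits (-1.12 ± 0.56). Gdnf, Itga8, Crym, Cited1, Meox1, Hoxa11 and Hoxd11 are also on the list of regulators and targets, so these lists overlap. Beside Pax2, Pax8 and Lhx1, the nephric duct and ureteric epithelium list had 9 of 11 tested genes higher and 2 lower, and 6 higher and 2 lower in both fits, with medians of 0.60 to 1.12 over the arrays. This was not particular to the duct list. The hindgut and liver endoderm list had 9 of 10 tested genes higher and 0 lower in both fits, with medians of 1.03 to 1.24. On the duct list Cdh16, a cadherin, was lower in both fits (-1.40 ± 0.05), where Pax8 passed only with the orientation term. Calb1, a marker of the ureteric epithelium, was higher in both fits (2.06 ± 0.05). So were Cldn6 (2.10 ± 0.77), Epcam (1.87 ± 0.06), Cldn7 (1.36 ± 0.36) and Spint2 (0.70 ± 0.11).

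Beside Wt1, the gonadal ridge and adrenal list had 5 of 9 tested genes lower and 3 higher, and 4 lower and 1 higher in both fits, with medians of -0.52, -0.54, 0.12 and 0.06 on arrays 1 to 4. Nr5a1, the steroidogenic factor of gonad and adrenal, had -1.49, -1.98, -1.67 and -1.57, lower on every array as Wt1 was. Nr5a1 lay below Wt1 on array 2 (-1.98 against -1.60) and on array 3 (-1.67 against -1.55). It lay above Wt1 on array 1 (-1.49 against -1.56) and level with it on array 4 (-1.57 for both). Krt7, of the same list, was higher in both fits (0.50 ± 0.13). The neural tube list, whose cells also use Pax2, Pax8 and Lhx1, had 7 of 9 lower and 1 higher, and 5 lower and 0 higher in both fits, with medians of -0.74 to -0.47.

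Lists that bear on Sall4 differed from each other. The limb bud list had 4 of 7 tested genes higher and 1 lower, and 4 higher and 0 lower in both fits (medians 0.30 to 0.44). The tail bud list had 3 of 8 higher and 1 lower, and 1 higher and 0 lower in both fits (medians 0.32 to 1.16). Its lower gene, Cdx4, was at 1.73 and 3.33 on arrays 1 and 2 and its call rests on the floor; without it the medians were 0.34 to 2.25. The primordial germ cell list had 1 of 4 higher and 3 lower, and 0 higher and 2 lower in both fits (medians -0.39 to -0.21).

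**Figure D4:**
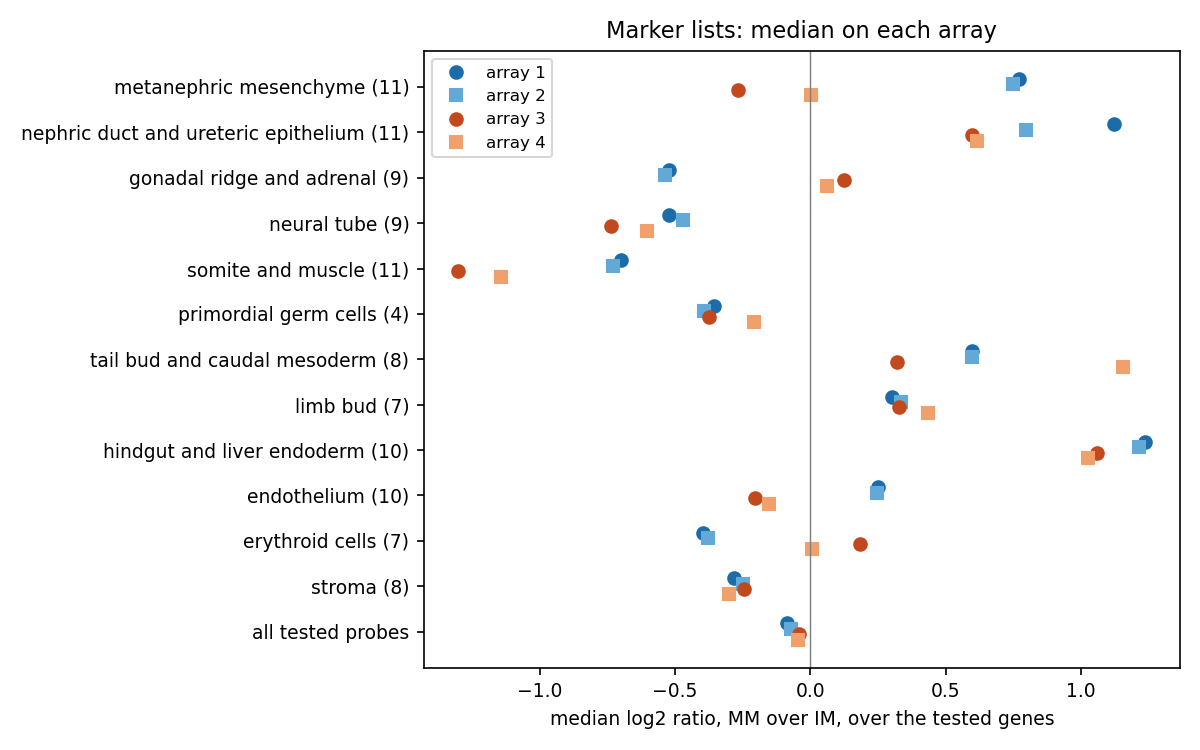
Median log2 ratio of MM over IM on each array for 12 marker lists, with the number of tested genes in brackets, and for all tested probes; blue marks are arrays 1 and 2 and orange marks arrays 3 and 4. The nephric duct, hindgut, limb bud and tail bud lists lie above 0 on 4 arrays and the neural, somite, stroma and germ cell lists below it. The gonadal, endothelium and erythroid medians change sign with the pair, and the metanephric mesenchyme medians, which include Itga8 at the floor, are above 0.7 on the first pair and near or below 0 on the second.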

How the data were processed

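The authors' deposited table gives a log2 ratio for each probe on each array. Imagene 5.5 quantified the spots, per the labels' protocols; the channels of arrays 3 and 4 were reversed for the swap, and a lowess curve over 20% of the data adjusted the control channel, with control values under 10 raised to 10. No background correction or filter is given in the sources used here. The base of the logarithm came from the values: 98.9% to 100% of ratios under 1 fell on whole thousandths (tolerance 0.01) from base 2, and at most 3.08% from base e or 10. Values at log2 of 0.01 were treated as a floor. The table holds no intensities, so the number of arrays limits the precision.

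Probes with 4 values (14184 of 22702) were fitted with limma 3.58.1 (R 4.3.3), the intercept being MM over IM beside a term for channel orientation, and Benjamini-Hochberg adjustment over all of them at 0.05. Errors are SDs over 4 arrays. Whether arrays share RNA extracts is not in the labels. The p-values therefore reflect only differences among these 4 arrays, which may be technical variation. With the orientation term, p-values and intervals reflect differences inside the array pairs only, because the term takes up the difference between the pairs. Without the term, the difference between the pairs enters the error. For Sall4, whose pairs did not overlap, the standard error was 0.033 with the term and 0.244 without it. On simulated arrays whose noise followed the fit's residual spread, 48 of 100 changes of 0.5 and 88 of 100 changes of 2 were recovered among 14184 probes, with 6 false calls. The changed probes were few beside the 61.9% of probes called in the data, so these counts do not describe the reported fit. Differences between extracts were not simulated.

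Probes with 1 symbol numbered 17252, with several 156 and with none 5294; 16566 matched RefSeq (GRCm38.p6) by gene ID and 0 symbols changed. The genes and lists were chosen with earlier results of these data known. Within lists, genes named had passed both fits with 1 sign on 4 arrays and no floor value, at most 6 by size of mean, and any measured relative could be named. Gfra1, Itga8, Cited1, Cdx4, the genes of the closing observations and neighbouring genes were added after values were seen. Nearest patterns were the 3 closest probes per gene. The alternatives were no orientation term, pairs averaged, floor values as missing, 3 or more values, arrays centred or scaled, array weights, each pair alone and each array left out.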

Additional observations from a re-analysis of the deposited data

Results flagged for a closer look

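The log2 ratio differed between the array pairs, by the orientation term of the limma fit at an adjusted p under 0.05, for 1 of the 8 tested kidney factors. Sall4 was lower on arrays 1 and 2 than on arrays 3 and 4 by a difference of -0.954, with the same sign on both. Among the relatives the difference, arrays 1 and 2 minus arrays 3 and 4, was -1.33 for 1 probe of Pax6, -1.2 for Osr2, -5.27 for Lhx4, 0.276 for Ldb1 and 1.24 for Lmo4. Osr2, Lhx4, Ldb1 and Lmo4 had opposite signs in the pairs. Among regulators and targets it was 0.984 for Hoxa11, 0.389 for Crym, 0.365 for Wnt4, -0.931 for Robo2 and 0.233 for Mycn, each with 1 sign throughout. Among markers it was 0.971 for Rspo1, -1.29 for Cldn6, 0.608 for Cldn7, 0.295 for Mc2r and 0.689 for Elavl4. The orientation term passed for 44.6% of all tested probes.

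One array stood apart from the other 3 for Hoxd13, a caudal marker with 5.54, 7.67, 5.40 and 5.26 on arrays 1 to 4, where the gap of array 2 was 0.884 of the range, above Dixon's critical value for 4 samples at the 95% level. Chance marks about 1 gene in 20. This was examined for 23 probes of kidney factors and relatives and 32 other listed genes, and 1 stood apart.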

How the results depend on the processing

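Calls over all probes numbered 8779. They fell to 3968 without the orientation term, to 0 with pairs averaged (1526 at an unadjusted p under 0.05) and to 0 on arrays 1 and 2 alone (9294 unadjusted), all by limma, and ranged from 5441 to 6790 with 1 array left out, lowest without array 3 and at 5707 without array 4. The 5 called kidney factors became 0 with pairs averaged (3 unadjusted) and 0 on arrays 1 and 2 alone (4 unadjusted), and 3 (without array 4) to 6 (without array 2) with 1 array left out. Six2, Sall4 and Wt1 remained called without each array in turn, and with values centred, scaled or weighted or the floor set to missing. The orientation term passed for 1 kidney factor, for 2 with 3 or more values, for 0 with arrays scaled (2 unadjusted) and for 0 to 2 with 1 array left out. Reversed ratios were those of genes not called, Lmo4 apart: Eya1 on arrays 3 and 4 alone (-0.11), Lhx1 on arrays 1 and 2 alone (-0.37) and without array 1 (-0.21) or array 4 (-0.04; at most 0.32 with 1 array left out), Pax4 (-0.049) and Ldb1 (-0.11) on arrays 3 and 4 alone, Osr2 (-0.52), Lhx4 (-2.46) and Lmo4 (0.27) on arrays 1 and 2 alone, Osr2 without array 2 (-0.036) or array 3 (-0.0025; at most 0.20 with 1 array left out), and Lhx9 without array 1 (-0.023; at most 0.15 with 1 array left out). The cause was not tested. For the 8 kidney factors 83 values under other settings kept direction and call, 16 lost the call, 4 reversed and 1 gained a call (Eya1). For 47 list genes, added after the data were seen, these numbers were 486, 113, 8 and 4. Each array holds both tissues, so every log2 ratio already pairs MM with IM on that array. There is 1 group of arrays, and no further pairing was used.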

Other observations

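Several caudal and limb genes had high ratios on arrays 1 and 2 that arrays 3 and 4 did not measure. This was not particular to them. Of all probes at 2 or more on arrays 1 and 2, 84.6% had no value or the floor on both arrays 3 and 4. Fgf10, a limb and mesenchyme growth factor, had 4.06 and 4.64, Msx1 4.19 and 2.11 and Hoxb13 2.40 and 2.69, with no value or the floor on arrays 3 and 4. Germ cell genes known beside Sall4 went the other way on the same arrays: Dppa3 had -4.57 and -3.79 and Pou5f1 -1.51 and -2.71. These genes were picked after their values were seen and were not tested.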
